A study of Mus musculus with 4 samples.

Results

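Acute phase proteins are secreted or membrane proteins whose genes respond to inflammation, and adipose tissue makes several of them beside the liver. The 10 genes described here were taken as a fixed list of those known from adipose tissue: *Saa1*, *Saa2*, *Saa3*, *Hp*, *Orm1*, *Orm2*, *Lcn2*, *Serpina3n*, *Steap4* and *Cp*. All 10 were measured, each by 1 probe set that names no other gene, among 19938 genes on the arrays. The rule itself uses no measured value, but the genes were chosen with earlier results of these data known.

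Subcutaneous adipose tissue (SAT) of C57Bl6 mice aged 16 weeks was profiled on 4 Affymetrix mouse Gene ST arrays, with 1 array per group. WT-CT and WT-HFD mice were NAPE PLD lox/lox without Cre, so the controls also carry the floxed *Napepld* alleles, and cKO-CT and cKO-HFD mice were AP2 Cre NAPE PLD lox/lox, in which Cre is driven by the promoter of the adipocyte gene *Fabp4* (aP2). CT groups were given the control diet AIN93M and HFD groups the high fat diet D12492. RNA from 4 to 5 mice of a group, picked for its RNA quality, was pooled before labelling, so an array is 1 sample, the spread between mice is not seen, and no difference below has a replicate check or a p-value.

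In an acute phase response, interleukin 1, interleukin 6 and tumour necrosis factor act through the transcription factors NF-kB, STAT3 and C/EBP on the genes of plasma proteins. The serum amyloid A proteins bind lipoproteins and lipids, haptoglobin binds free haemoglobin, the orosomucoids carry drugs and lipids, and lipocalin 2 binds the iron-loaded siderophores of bacteria. *Serpina3n* encodes a secreted protease inhibitor, *Steap4* a metalloreductase that reduces iron and copper, and *Cp* ceruloplasmin, a copper protein that oxidizes iron. In obese mice *Saa3*, *Lcn2* and *Hp* are known as products of fat.

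What the genes share upstream of their starts is shown first, since C/EBP factors are active in both adipocytes and the acute phase response. RefSeq (GRCm38.p6) promoter windows were found for 8 of the 10 genes (*Hp* and *Orm1* are named only), and the 250 bases before each gene start were searched on both strands for TTGCNNAA (C/EBP), TTCNNNGAA (STAT) and the NF-kB letters GGG and TTTCC with any 2 bases between them. TTGCNNAA was found in 7 of the 8 genes, while 9.56% of all 32851 windows of this length hold it. The first count is by gene and the second by window, and the 8 genes have 9 windows. *Cp* has it in 1 of its 2 overlapping windows, and no match overlapped a match to another of these motifs. The match with 16 bases on each side follows, 5′ to 3′ along the gene, with the match in capitals, and with the paralogue *Orm3* added.
Saa1 (chr7:46743139-46743178, minus strand): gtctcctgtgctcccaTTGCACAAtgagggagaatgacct
Saa2 (chr7:46751634-46751673, plus strand): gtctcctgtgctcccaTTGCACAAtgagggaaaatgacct
Saa3 (chr7:46715752-46715791, minus strand): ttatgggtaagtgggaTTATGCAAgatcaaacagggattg
Orm2 (chr4:63362313-63362352, plus strand): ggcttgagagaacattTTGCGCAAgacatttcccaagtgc
Orm3 (chr4:63356021-63356060, plus strand): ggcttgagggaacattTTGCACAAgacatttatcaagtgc
Lcn2 (chr2:32387932-32387971, minus strand): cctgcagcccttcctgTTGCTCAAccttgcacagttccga
Steap4 (chr5:7960369-7960408, plus strand): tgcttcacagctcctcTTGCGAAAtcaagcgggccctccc
Cp (chr3:19957163-19957202, plus strand): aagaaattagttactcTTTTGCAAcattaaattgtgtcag
In *Saa3* and *Cp* the match reads in the reverse orientation. The 250 upstream bases of *Saa1* and *Saa2* were identical at 238 positions (95.2%), and those of *Orm2* and *Orm3* at 219, so these matches are not independent of each other. *Steap4* was the only one of the 8 with all 3 motifs, and *Serpina3n* the one without TTGCNNAA. Their windows are therefore given whole, with the matches in capitals.
Steap4 (chr5:7960222-7960471, plus strand): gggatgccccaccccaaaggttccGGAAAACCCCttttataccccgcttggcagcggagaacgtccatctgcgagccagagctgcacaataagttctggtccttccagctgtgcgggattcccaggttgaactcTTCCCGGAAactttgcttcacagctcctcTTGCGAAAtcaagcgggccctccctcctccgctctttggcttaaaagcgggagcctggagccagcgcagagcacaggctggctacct
Serpina3n (chr12:104406458-104406707, plus strand): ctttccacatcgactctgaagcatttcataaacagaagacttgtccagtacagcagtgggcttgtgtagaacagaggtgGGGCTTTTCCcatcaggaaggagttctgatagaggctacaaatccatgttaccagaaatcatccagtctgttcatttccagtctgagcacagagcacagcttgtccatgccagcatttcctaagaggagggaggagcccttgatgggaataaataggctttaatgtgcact
The capitals in *Steap4* mark, in order, a match to the NF-kB letters on the other strand, to the STAT letters and to the C/EBP letters. Those in *Serpina3n* mark the NF-kB letters. TTCNNNGAA occurs in 7.02% and the NF-kB letters in 1.41% of all windows, and they were found in 1 and 2 of the 8 genes. These are letter matches in a reference sequence, and binding was not measured.

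Levels are log2 values made by the authors with RMA, and a difference of 2 log2 levels is a log2 ratio. Olfactory receptor (*Olfr*) genes, which fat is not known to use, gave a background: 95% of the 1027 *Olfr* genes lay below 5.28 to 5.50, depending on the array. By that measure *Hp*, *Orm1*, *Serpina3n*, *Steap4* and *Cp* were above background on all 4 arrays, and *Lcn2* on the WT-CT and cKO-CT arrays only. *Saa1*, *Saa2*, *Saa3* and *Orm2* were below it on all 4 arrays, so their ratios are not resolved. Precision is limited by the small number of arrays. Between arrays, r across genes was 0.980 to 0.989, and genes are not independent replicates. Pancreatic acinar markers were higher on WT-CT than on the other 3 arrays, and skeletal muscle markers differed most between WT-HFD and cKO-HFD. *Napepld* itself was at a log2 level of 8.31 in WT and 7.78 in cKO on CT, and of 8.01 and 7.94 on HFD, with no knowledge here of whether its probe set covers the floxed exons. The study reported that NAPE-PLD protein was not detected in white fat of cKO mice. By qPCR it reported lower *Napepld* in cKO fat on both diets, with some expression left. Where 4 values follow each other without names, they are the 2 CT arrays and then the 2 HFD arrays, with WT before cKO in each pair.

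**Figure D1:**
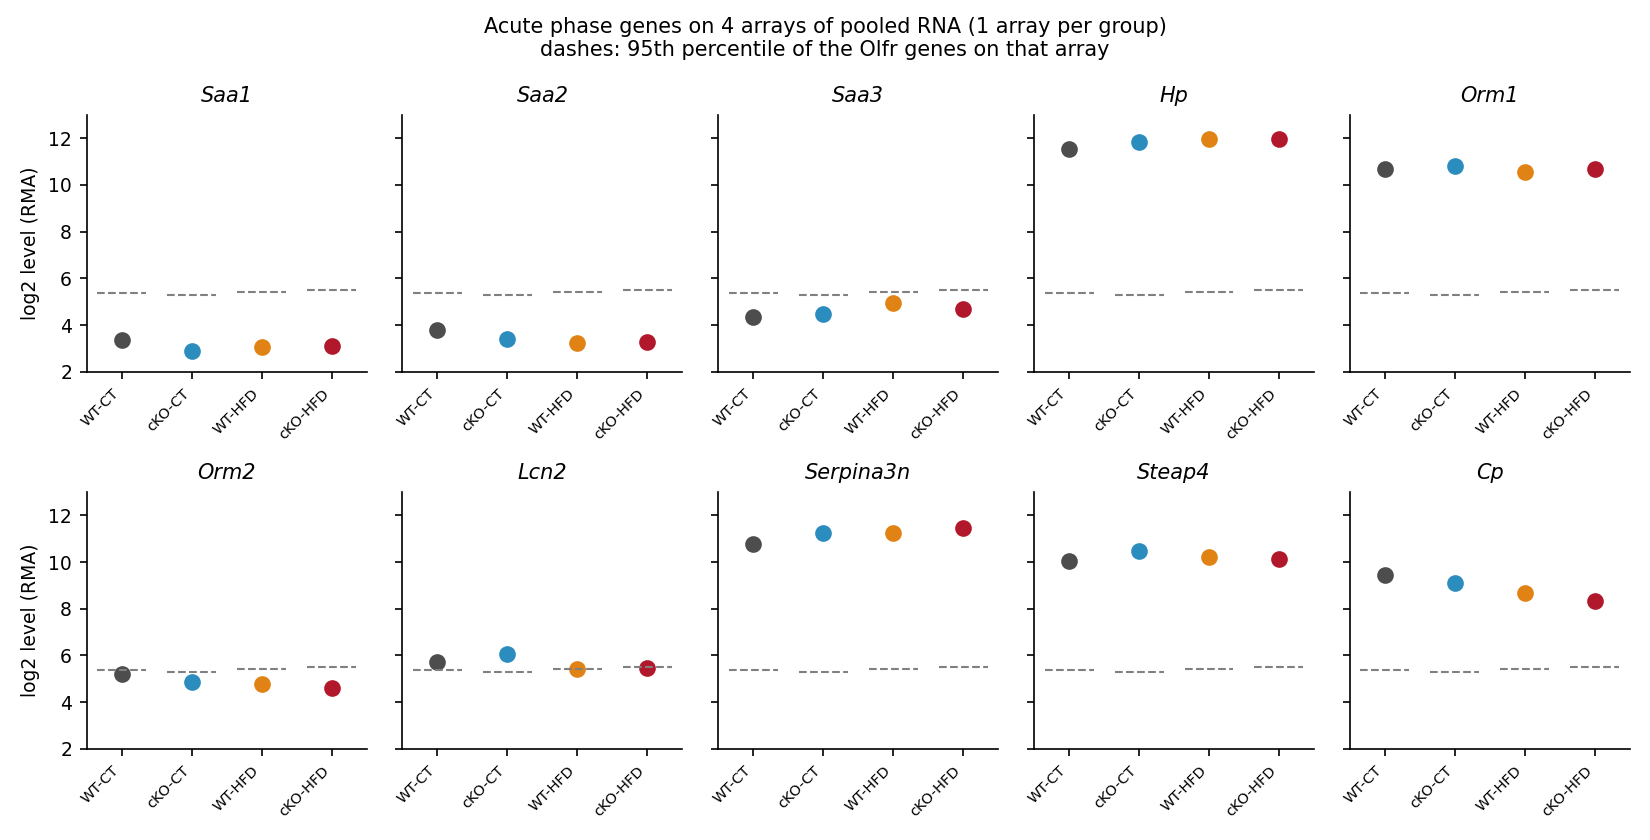
Log2 level (vertical axis) of the 10 acute phase genes, with 1 point for the array of each group and grey dashes at the *Olfr* background of that array. *Hp*, *Orm1*, *Serpina3n*, *Steap4* and *Cp* lie well above the dashes, *Lcn2* lies near them and the other 4 genes lie below them.

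The serum amyloid A genes were not above background in any group. *Saa3* (probe set 10563597) had a log2 level of 4.33 in WT-CT against 4.49 in cKO-CT, and of 4.95 in WT-HFD against 4.70 in cKO-HFD. It was highest on WT-HFD, and both HFD arrays were above both CT arrays, by 1.53-fold for WT-HFD over WT-CT and 1.15-fold for cKO-HFD over cKO-CT. *Saa1* (10563611) had 3.38, 2.89, 3.05 and 3.10 in the same order of arrays, and *Saa2* (10553274) had 3.78, 3.40, 3.24 and 3.26. Both were highest on WT-CT, the opposite of *Saa3*. *Saa1*, *Saa2*, *Saa4* and *Saa3* neighbour each other in the genome, and *Saa4*, the constitutive member of the family, also stayed below background, at 4.24, 3.76, 4.09 and 4.29. *Saa1* and *Saa2* are close copies, so a probe set for either may take up the other's RNA.

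Of the binding proteins of the blood, *Hp* and *Orm1* stayed under 1.5-fold in every comparison. *Hp* (10581605) had a log2 level of 11.54 in WT-CT against 11.85 in cKO-CT, and of 11.97 in WT-HFD against 11.96 in cKO-HFD. WT-CT was the lowest array and the HFD arrays were nearly equal, and the log2 ratios to WT-CT were 0.31, 0.43 and 0.43, none of them 1.5-fold. *Orm1* (10505438) stayed between 10.55 and 10.80, the narrowest range of the 10 genes at 0.25 on the log2 scale, with levels of 10.67, 10.80, 10.55 and 10.69. *Orm2* (10505451) stood at 5.21, 4.86, 4.77 and 4.61, highest on WT-CT and below background throughout. The third gene of that cluster, *Orm3*, lies between *Orm1* and *Orm2* in the genome and had levels of 6.13, 5.70, 4.39 and 4.29. It was above background on both CT arrays and below it on both HFD arrays, so that its fall with HFD (log2 ratios of -1.73 in WT and -1.41 in cKO) passed 1.5-fold in both genotypes without its size being resolved. The orosomucoid genes share much of their sequence, and what each probe set takes up from the other copies was not tested.

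*Lcn2* (10481627) had a log2 level of 5.72 in WT-CT against 6.06 in cKO-CT, and of 5.40 in WT-HFD against 5.45 in cKO-HFD. It was highest on cKO-CT, and both CT arrays were above both HFD arrays. Its genotype ratio on CT was 0.34, and its diet ratio in cKO was -0.61, or 1.53-fold lower. In WT the same diet ratio was -0.32. As *Lcn2* lay below background on both HFD arrays, the size of these falls is not resolved. *Lcn2* is also a granule gene of neutrophils, and of 13 neutrophil markers only *Elane* was above background on any array, while *S100a8*, *S100a9*, *Mpo*, *Camp*, *Ngp* and *Ly6g* were below it on all 4.

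*Serpina3n* (10398075) had a log2 level of 10.76 in WT-CT against 11.23 in cKO-CT, and of 11.26 in WT-HFD against 11.47 in cKO-HFD. WT-CT was lowest and cKO-HFD highest, with cKO-CT and WT-HFD nearly equal between them. The log2 ratio to WT-CT was 0.47 in cKO-CT and 0.50 in WT-HFD, both under 1.5-fold, and 0.71 in cKO-HFD, a 1.64-fold difference. Of the *Serpina3* cluster, *Serpina3a* and *Serpina3b* were also measured, and they lay below background on all 4 arrays, between 4.34 and 4.60. The other close copies are not named by a probe set of their own in the annotation used, so their levels could not be set beside that of *Serpina3n*.

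*Steap4* (10519497) had a log2 level of 10.06 in WT-CT against 10.46 in cKO-CT, and of 10.21 in WT-HFD against 10.14 in cKO-HFD. It was highest on cKO-CT, where the log2 ratio to WT-CT was 0.40, and the other 3 arrays lay within 0.15 of each other. Its genotype ratio was -0.07 on HFD, and the difference between the genotype ratios of the 2 diets, -0.47, was the most negative of the 10 genes. *Steap3*, the metalloreductase of the transferrin cycle, had 7.76, 8.14, 8.14 and 8.23 and was lowest on WT-CT. *Steap1* and *Steap2* were below background on all 4 arrays.

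*Cp* was the gene with the widest range. *Cp* (10490989) had a log2 level of 9.46 in WT-CT against 9.09 in cKO-CT, and of 8.67 in WT-HFD against 8.31 in cKO-HFD. The levels stepped down in that order, with both HFD arrays below both CT arrays. HFD went with a 1.74-fold lower level in WT (log2 ratio -0.80) and a 1.71-fold lower level in cKO (log2 ratio -0.78), a pair of comparisons that share no array. The genotype ratio was -0.38 on CT and -0.36 on HFD, each about 1.3-fold and under the threshold. The diet and genotype ratios thus added up on the log2 scale, with a difference of 0.02 between the genotype ratios of the 2 diets, and cKO-HFD was 2.22-fold below WT-CT. *Heph*, the other multicopper ferroxidase measured, went the other way, with levels of 6.69, 6.90, 7.28 and 7.09, and WT-HFD was 1.5-fold above WT-CT (log2 ratio 0.59, and under 1.5-fold after cyclic loess).

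A 1.5-fold difference, the size the study used, served as the call for the whole set. Between cKO-CT and WT-CT, the comparison for *Napepld* deletion on the control diet, 0 of 10 genes passed it in either direction, where 1.64% of all genes were higher and 1.52% lower. The median log2 ratio of the 10 genes was 0.15, against -0.005 over all genes, and 6 ratios were above 0 and 4 below. *Serpina3n*, *Steap4*, *Lcn2* and *Hp* had the highest ratios, 0.31 to 0.47, and *Saa1*, with -0.48, the lowest. Over the 6 genes above background on either array the median was 0.33.
Between cKO-HFD and WT-HFD, the deletion on the high fat diet, 0 of 10 passed, where 1.04% of all genes were higher and 2.11% lower, and the ratios ran from -0.36 for *Cp* to 0.22 for *Serpina3n* with a median of 0.01. The genotype ratio had the same sign on both diets for 5 of the 10 genes (*Orm1*, *Orm2*, *Lcn2*, *Serpina3n* and *Cp*), and for 47.7% of all genes. A replicate error is lacking, so no genotype ratio of these genes can be told from no difference.

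For the diet in WT, WT-HFD over WT-CT, 1 of 10 genes was higher (*Saa3*, below background on both arrays) and 1 was lower (*Cp*), where 3.16% of all genes were higher and 2.67% lower. The median log2 ratio was -0.22, against -0.004 over all genes, and it turned to 0.014 over the 6 genes above background on either array. *Lcn2* is 1 of these 6 through the WT-CT array only. Over the genes averaging 7 or more on the log2 scale, which leave *Lcn2* out, the median was 0.15. In cKO, cKO-HFD over cKO-CT, 0 genes were higher and 2 were lower (*Cp* and *Lcn2*), where 1.82% of all genes were higher and 2.17% lower, and the median was -0.12. These diet comparisons share no array, and the diet ratio had the same sign in both genotypes for 8 of the 10 genes and 52% of all genes. Counting only genes above background on at least 1 array, it was 5 of 6, and 54.1% over all such genes. The ratios of *Hp*, *Serpina3n* and *Saa3* were above 0 in both genotypes, those of *Saa2*, *Orm1*, *Orm2*, *Lcn2* and *Cp* below 0 in both, and those of *Saa1* and *Steap4* split.
With both together, cKO-HFD over WT-CT, 1 gene was higher (*Serpina3n*) and 2 were lower (*Cp* and *Orm2*, the latter below background on both arrays), where 3.36% of all genes were higher and 3.41% lower. The comparison shares the WT-CT array with 2 of the others.

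**Figure D2:**
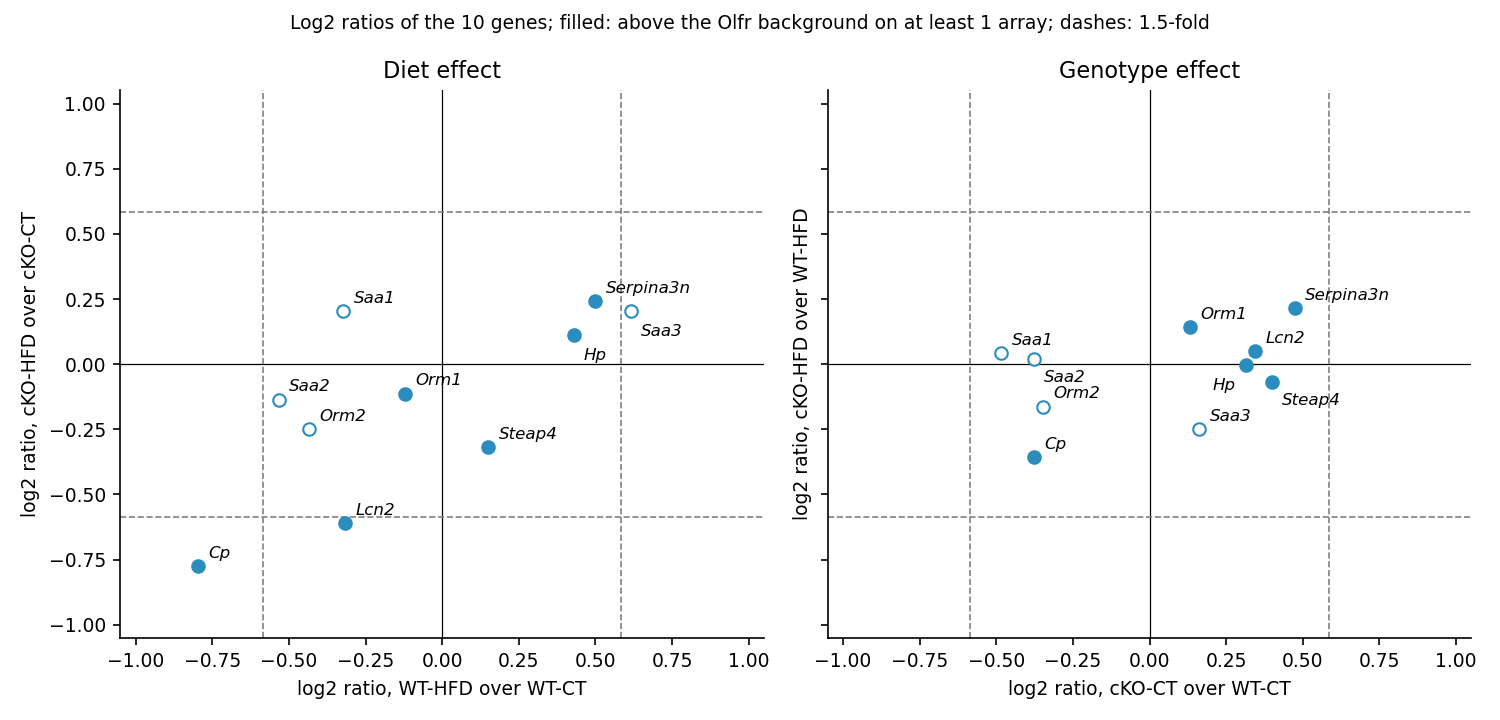
Left, the log2 ratio of HFD over CT in WT (horizontal axis) and in cKO (vertical axis), and right, the log2 ratio of cKO over WT on CT (horizontal) and on HFD (vertical), for the 10 acute phase genes with 1 point per gene. Filled points were above background on 1 array or more and dashed lines mark 1.5-fold; *Cp* lies past both lines for diet, at -0.80 and -0.78, and no gene passes a line for genotype.

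Other genes of the acute phase response were read beside the 10 genes. Of 29 listed, 21 were measured, of which 12 were above background on no array and 2 on some arrays only. In cKO-CT over WT-CT, *Lbp*, for the plasma protein that presents lipopolysaccharide, was higher (1.11), and *Hamp*, the iron hormone hepcidin, was lower (-0.64) but below background, with the other 19 under 1.5-fold. In WT-HFD over WT-CT, *Lbp* (1.46), the complement gene *Cfb* (0.65) and the C1 inhibitor gene *Serping1* (0.61, and 0.57 after cyclic loess, under 1.5-fold) were higher and *Orm3* was lower. In cKO-HFD over cKO-CT, *Lbp* (0.71) and *Hamp* (0.67, below background) were higher and *Orm3* lower, and in cKO-HFD over WT-HFD none passed. The median log2 ratios of the 21 genes were -0.02, -0.08, 0.00 and 0.15 in these 4 comparisons. Over the 8 or 9 genes above background on either array compared, they were 0.23, 0.16, -0.09 and 0.03, with the sign turned in the first 2. This filter keeps a gene that only 1 of the 2 arrays resolves. It kept *Orm3* through the CT array in both diet comparisons, and *Cd14* through the other array in the comparisons with WT-HFD. Over the genes averaging 7 or more on the log2 scale the medians were 0.49, 0.61, 0.02 and -0.12. *Crp*, *Apcs*, *Fga*, *Fgb* and *Fgg*, acute phase genes of the liver, were below background on all 4 arrays. The metallothionein gene *Mt2*, which binds zinc and copper, was 0.65 higher in cKO-HFD over WT-CT.

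**Figure D3:**
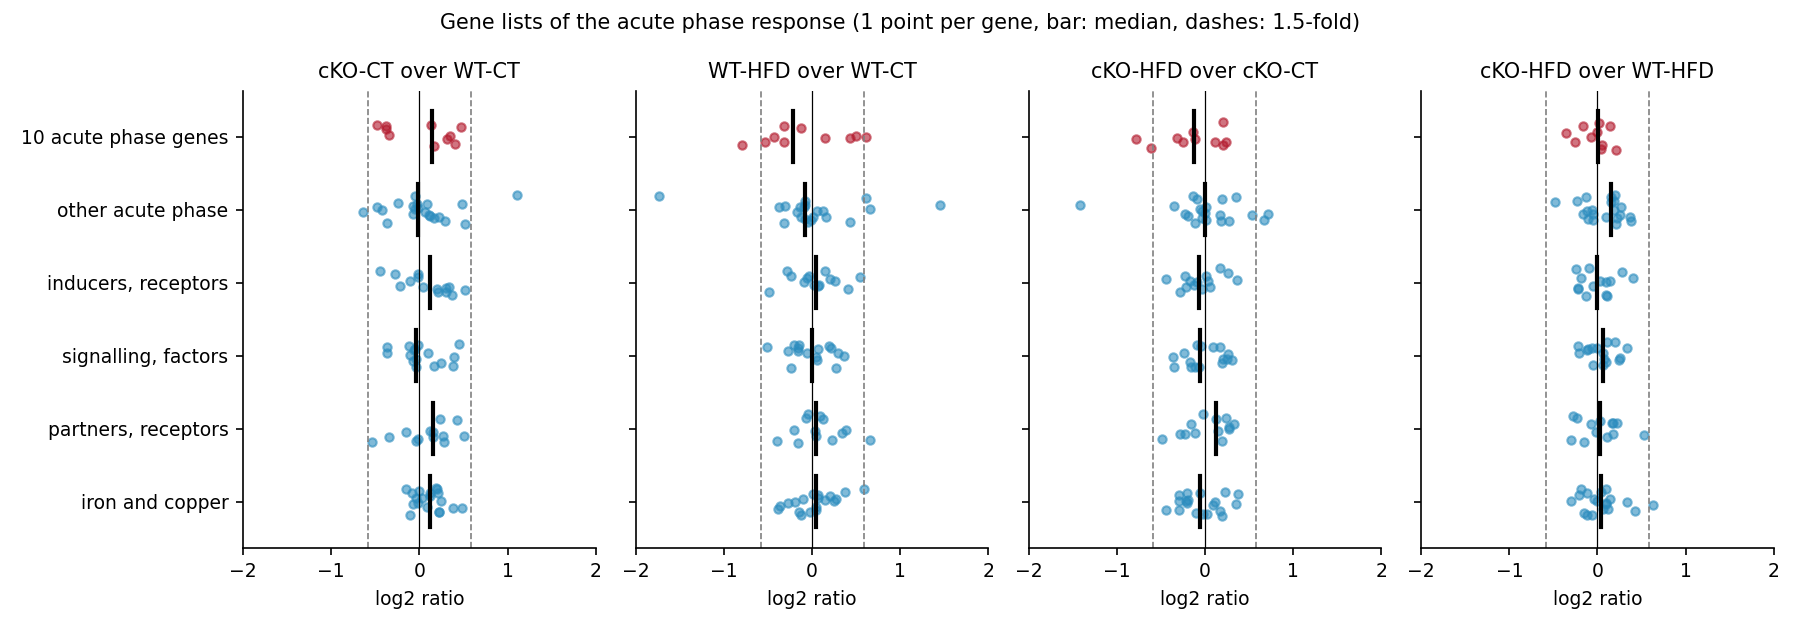
Log2 ratio (horizontal axis) of each gene of the 10 acute phase genes (red) and of 5 other lists (blue) in 4 comparisons, with 1 point per gene, black bars at the medians and dashed lines at 1.5-fold. In cKO-CT over WT-CT the 10 genes stay within the lines, and *Lbp* is the far point at 1.11 among the other acute phase genes.

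The inducers of these genes were at low levels. *Il6*, *Il1b*, *Il1a*, *Tnf*, *Osm* and *Lif* were below background on all 4 arrays, *Il6* for example at 3.26, 2.81, 2.77 and 3.17. Their receptors were above it, and *Il6ra*, the interleukin 6 receptor, had 8.11 in WT-CT against 8.62 in cKO-CT, and 8.65 in WT-HFD against 8.41 in cKO-HFD. Of 14 inducers and receptors measured, 0 passed 1.5-fold in any of the 5 comparisons. The same held for the 16 kinases and transcription factors measured: *Stat3* stood at 8.72, 8.89, 8.78 and 8.85, its feedback inhibitor *Socs3* at 6.05, 5.68, 5.78 and 5.89, and *Cebpd* between 5.98 and 6.14. Over all genes, 1.04 to 3.36% were higher and 1.52 to 3.41% lower in these comparisons. For lists this short, a count of 0 is near those shares. *Cebpa*, the C/EBP factor of mature adipocytes, was lower with HFD (log2 ratios of -0.51 in WT and -0.34 in cKO), and *Nfkbia*, the NF-kB inhibitor, was 0.39 higher in cKO-CT over WT-CT, none of them 1.5-fold.

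Binding partners of the proteins were next. Of 13 measured, *Hmox1*, which degrades the haem that haptoglobin helps to salvage, was the gene past 1.5-fold, with levels of 7.43 in WT-CT against 7.93 in cKO-CT, and of 8.09 in WT-HFD against 8.26 in cKO-HFD. It was lowest on WT-CT, and its log2 ratios to that array were 0.50, 0.66 and 0.84. *Cd163*, the macrophage receptor for haptoglobin with haemoglobin, had log2 ratios to WT-CT of 0.26, 0.33 and 0.03, and *Slc22a17*, a receptor for lipocalin 2, stayed between 6.72 and 6.99. Of 19 genes of iron and copper handling, *Heph* passed in WT-HFD over WT-CT and *Tfr2*, the second transferrin receptor, in cKO-HFD over WT-HFD (0.63). *Tfr2* was below background on WT-HFD, at 5.10, so the size of that ratio is not resolved. Ferritin and transferrin varied less, with *Fth1* between 12.77 and 12.97, *Ftl1* between 11.88 and 12.12 and *Trf* between 11.88 and 12.21.

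**Figure D4:**
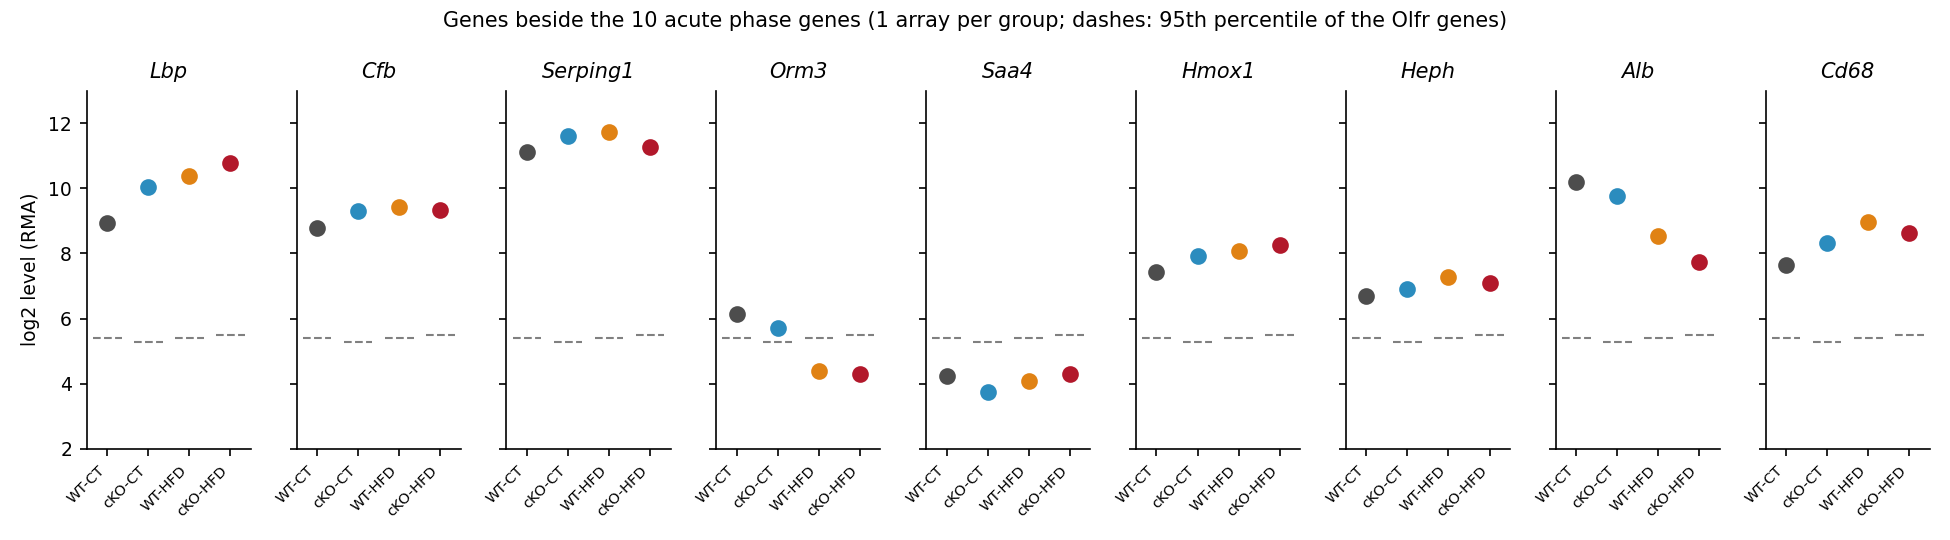
Log2 level (vertical axis) of 9 genes read beside the acute phase genes, with 1 point for the array of each group and grey dashes at the *Olfr* background. *Lbp* and *Hmox1* step up from WT-CT to cKO-HFD, *Alb* steps down from 10.18 to 7.73, and *Orm3* crosses below the dashes on both HFD arrays.

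Cell type markers were checked beside these results. In bulk tissue, fewer cells of a type and less RNA per cell cannot be told apart. Of 10 adipocyte markers measured, all were above background on all 4 arrays, and the summed linear level of the list was 49629, 54882, 52505 and 57301. *Adipoq* stayed between 12.44 and 12.70, but not every marker was as even. In each diet comparison 1 marker was higher by 1.5-fold (*Lep*) and 1 was lower (*Slc2a4*). *Lep* had levels of 10.72, 11.73, 12.06 and 12.54, with diet ratios of 1.35 in WT and 0.80 in cKO. Its genotype ratio on CT, 1.02, also passed 1.5-fold. Macrophages make *Hmox1* and respond to the same signals, and 15 macrophage markers had summed linear levels of 4463, 6400, 7752 and 5756. These sums were lowest on WT-CT, as *Hp*, *Serpina3n*, *Steap4* and *Saa3* (below background) were. They were highest on WT-HFD, as *Hp* (nearly equal on cKO-HFD) and *Saa3* were, and as *Serpina3n* and *Steap4* were not. Of the 15, 5 were 1.5-fold higher in cKO-CT over WT-CT (1 after cyclic loess) and 10 in WT-HFD, with medians of 0.49 and 0.75. The part of macrophages in the *Hp*, *Serpina3n*, *Steap4* and *Saa3* ratios was not tested.
Hepatocytes make most of these proteins. Of 19 hepatocyte markers measured, 12 to 13 were below background on each array, *Ttr*, *Ahsg*, *Apob*, *Fgb* and *Ambp* among them on all 4. *Cyp2e1*, *Alb*, *Apoa1*, *Apoa2*, *Apoc3* and *Hnf4a* were above it on all 4 arrays, and adipose tissue is known to express *Cyp2e1*. *Apoa1* had levels of 6.69, 6.81, 6.59 and 7.71. It was highest on cKO-HFD, as *Apoc3* and *Hnf4a* were, while *Alb* and *Apoa2* were lowest there. *Alb* had levels of 10.18, 9.77, 8.54 and 7.73, with diet ratios of -1.64 in WT and -2.03 in cKO. Its order of arrays was that of *Cp*, but also that of *Orm3* and of the adipocyte marker *Slc2a4*. The diet ratios of *Slc2a4* were -0.69 in WT and -0.65 in cKO. The summed linear level of the hepatocyte list was 5134, 5279, 3652 and 3906, and the part of hepatocytes in the *Cp* ratios was not tested.
Of 14 acinar markers measured, 11 were above background on WT-CT and 5 to 6 on the other arrays, with summed linear levels of 1923, 521, 606 and 576. *Cp*, *Orm2*, *Saa1* and *Saa2* were also highest on WT-CT. Of the 14, 11 were lower by 1.5-fold in WT-HFD over WT-CT, where the ratio of *Cp* was -0.80, and 0 passed in cKO-HFD over cKO-CT, where it was -0.78. The part of acinar RNA in these levels was not tested.
The 15 skeletal muscle markers had summed linear levels of 15295, 15975, 49403 and 3217, with a median log2 ratio of 1.74 in WT-HFD over WT-CT and -2.27 in cKO-HFD over cKO-CT. The part of muscle RNA in the levels of the 10 genes was not tested. Epithelial and mesothelial markers were mostly below background, and stromal progenitor markers had medians of 0.33 in cKO-CT over WT-CT and 0.50 in WT-HFD over WT-CT. Their medians were -0.25 in cKO-HFD over cKO-CT and -0.38 in cKO-HFD over WT-HFD, with *Pi16* at -1.57 and *Dpp4* at -1.39 in the latter.

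The genes with the pattern most like each acute phase gene were found by the root mean square difference of the 3 log2 ratios to WT-CT, over 12485 other genes above background on at least 1 array. For *Cp* these were *Dennd2d* (0.03), *Sfxn1* (0.04) and *Timm21* (0.07), of which *Sfxn1* and *Timm21* encode mitochondrial proteins. For *Serpina3n* they were *Map1b*, *Sulf2* and *Jcad*, at 0.03 to 0.04. For *Hp* they were *Sgcd*, *Plpp1* and *Sar1a*, for *Steap4* *Uchl1*, *Fam13b* and *Dtx3l*, for *Lcn2* *Orc6*, *Slc22a21* and *Sema4f*, and for *Orm1* *Cldn11*, *Dvl3* and *Dnlz*. The 3 ratios share the WT-CT array, so the likeness is a description of these 4 arrays.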

How the data were processed

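RNA of subcutaneous adipose tissue, pooled within each group, was measured on 4 arrays, 1 per group. For each probe set the authors deposited a log2 level from RMA (background correction, quantile normalization across arrays, probe summary). RMA-Sketch of Affymetrix APT is named in the methods, and Affymetrix Expression Console in the submitters' processing notes. RMA compresses differences of weak probe sets, and quantile normalization removes any shift common to most genes. Detection P values were left out here, and no filter was applied in the main setting.

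Of 35556 probe sets, 21789 had 1 gene name in the platform annotation, 1621 several and 12146 none. Probe sets with 1 name were averaged by gene. Log2 ratios were called at 1.5-fold, with no test, as each group has 1 array. The genes and the 15 lists (198 of 220 symbols measured) were chosen with earlier results of these data known. Of the 10 genes, all are named. A rule gave up to 4 genes above background with the largest ratio from each other list, and those needed for counts of 5 or fewer. It also gave *Napepld* and the 3 genes nearest in pattern to each acute phase gene above background. Not every gene that the rule gave is named in the text. Further genes of the lists were named after their values were seen. Alternatives were the brightest probe set, probe sets with several names, probe sets one by one, an *Olfr* background filter (95th percentile), genes averaging 7 or more on the log2 scale, a 2-fold call, median centring and cyclic loess (limma 3.58.1 in R 4.3.3, span 0.7, 3 iterations). The 1.5-fold call was tested on simulated data with planted changes and a noise of chosen size, and the averaging of probe sets on a small made-up table. The other steps were not tested in this way. Python 3.11.15, numpy 2.4.6, pandas 2.3.3, biopython 1.88 and matplotlib 3.10.9 were used.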

Additional observations from a re-analysis of the deposited data

How the results depend on the processing

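No paired analysis was possible because each group has 1 array, and for the same reason no array could be left out of a comparison. Of the 355 values for the log2 ratios of the 10 genes under the alternatives, 349 kept their side of the 1.5-fold or 2-fold size and moved by no more than the spread (scaled median absolute deviation) among genes of like level. The other 6 were calls that a 2-fold size ended, *Saa3* in WT-HFD over WT-CT, *Orm2* and *Serpina3n* in cKO-HFD over WT-CT, *Lcn2* in cKO-HFD over cKO-CT and *Cp* in both diet comparisons. Each of the 10 genes has 1 probe set, so the choices of probe set gave the same ratio by construction. The filters only keep or drop a gene, and the 2-fold size leaves its ratio as it was. The count of 349 therefore says little about stability, as only cyclic loess and median centring could move a ratio. The largest shift among the 50 ratios was 0.112 with cyclic loess and 0.0285 with median centring, and both left every count of the 10 genes as it was.

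Counts of the 10 genes fell when a rule removed genes or raised the size. With a 2-fold size, 0 genes were higher and 0 lower in WT-HFD over WT-CT, 0 were lower in cKO-HFD over cKO-CT, and 0 were higher and 1 lower (*Cp*) in cKO-HFD over WT-CT. With the *Olfr* background filter, 0 were higher in WT-HFD over WT-CT and 1 was lower in cKO-HFD over WT-CT, and for genes averaging 7 or more on the log2 scale these were 0 and 1, and 1 was lower in cKO-HFD over cKO-CT. The shares of all genes called at these settings were not worked out, so these counts cannot be set against them.

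Medians moved with the same filters because 4 or 5 of the 10 genes were left out. The median in cKO-CT over WT-CT was 0.33 with the background filter and 0.31 for genes averaging 7 or more. In WT-HFD over WT-CT it turned from -0.22 to 0.014 with the first and 0.15 with the second filter. For cKO-HFD against WT-CT it turned from -0.12 to 0.0499 and 0.0809. In both, the first filter kept *Lcn2*, which was above background on the CT arrays only, and the second left it out. In the other lists, cyclic loess ended, among the acute phase and iron genes, the calls of *Hamp* in cKO-CT over WT-CT and of *Serping1* and *Heph* in WT-HFD over WT-CT, and took the macrophage count in cKO-CT from 5 to 1. Depth is not given for arrays; signal near the *Olfr* background limits *Saa1*, *Saa2*, *Saa3*, *Orm2* and *Lcn2*.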
